A study of Mus musculus with 12 samples.

Results

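The chemokines of the CC family that are known from colon inflammation were followed in the colon of mice with and without Parp1, at rest and after chemical injury. The set held 10 genes chosen by name, namely Ccl2, Ccl3, Ccl4, Ccl5, Ccl7, Ccl8, Ccl11, Ccl20, Ccl22 and Ccl28, out of 21314 genes measured. All 10 were on the array, each with 1 probe set annotated with that gene alone. RNA of the whole colon of 12 mice aged 6 to 8 weeks was hybridised to Affymetrix arrays, 1 array per mouse, with 3 mice in each of 4 groups. The groups were Parp1-/- mice given 4% dextran sulfate sodium (DSS) in the drinking water for 7 days, Parp1-/- mice given plain water, wild-type mice given the same DSS and wild-type mice given plain water. DSS is a sulfated polysaccharide that injures the colon lining and brings on colitis, and Parp1 encodes poly(ADP-ribose) polymerase 1, a nuclear enzyme that responds to DNA breaks. The labels name neither the mouse strain nor the allele beyond the Parp1-/- genotype.

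CC chemokines are small secreted proteins named for a pair of adjacent cysteines, and they draw leukocytes that carry matching G protein-coupled receptors. Ccl2 and Ccl7 recruit monocytes through the receptor Ccr2, and Ccl8 belongs to the same monocyte chemoattractant group, although in mice it acts through Ccr8. Ccl3, Ccl4 and Ccl5 attract monocytes, effector T cells and other leukocytes, while Ccl22 draws Ccr4-bearing T cells. Ccl11, or eotaxin, recruits eosinophils through Ccr3. Ccl20 and Ccl28 are made by gut epithelium: Ccl20 attracts Ccr6-bearing lymphocytes and dendritic cells, and Ccl28 attracts Ccr10-bearing plasma cells.

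The genes of 7 of the 10 chemokines lie on mouse chromosome 11, those of Ccl2, Ccl3, Ccl4, Ccl5, Ccl7, Ccl8 and Ccl11, while Ccl20 lies on chromosome 1, Ccl22 on chromosome 8 and Ccl28 on chromosome 13 (RefSeq annotation of GRCm38.p6). In that annotation the span of Ccl4 overlaps that of Ccl3, and where the array's probes lie within either gene is not known here. A RefSeq table of promoters of the same build, holding 250 bases before and 50 bases after each start, matched 5 of the 10: Ccl3, Ccl8, Ccl20, Ccl22 and Ccl28. The 3 promoters below belong to the chemokine with the largest difference after DSS, to a monocyte chemokine without a rise and to an epithelial chemokine. They are written in the direction of transcription, and capitals mark the matches to the motifs searched.
Ccl3: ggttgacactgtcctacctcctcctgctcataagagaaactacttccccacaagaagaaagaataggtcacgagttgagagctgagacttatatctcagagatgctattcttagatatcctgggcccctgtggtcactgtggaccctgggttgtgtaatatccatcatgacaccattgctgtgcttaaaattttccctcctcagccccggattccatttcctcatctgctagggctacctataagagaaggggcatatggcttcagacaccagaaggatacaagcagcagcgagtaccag
Ccl8: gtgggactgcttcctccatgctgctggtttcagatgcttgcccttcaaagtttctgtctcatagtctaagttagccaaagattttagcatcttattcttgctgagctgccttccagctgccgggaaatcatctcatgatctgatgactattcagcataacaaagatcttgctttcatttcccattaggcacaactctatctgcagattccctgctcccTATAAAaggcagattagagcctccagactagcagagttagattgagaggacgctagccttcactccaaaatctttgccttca
Ccl20: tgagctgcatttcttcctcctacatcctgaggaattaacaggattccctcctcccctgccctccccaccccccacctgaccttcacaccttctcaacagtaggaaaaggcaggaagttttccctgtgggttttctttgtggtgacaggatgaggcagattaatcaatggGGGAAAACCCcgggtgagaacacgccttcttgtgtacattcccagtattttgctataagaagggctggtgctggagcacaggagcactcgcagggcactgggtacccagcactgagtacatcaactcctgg
The Ccl3 promoter is chr11:83649329-83649628 on the minus strand, that of Ccl8 is chr11:82114935-82115234 on the plus strand and that of Ccl20 is chr1:83116516-83116815 on the plus strand. Each was searched on both strands for a form of the NF-kappaB motif (GGGAA, any 3 bases, then CC), for the AP-1 motif TGANTCA and for the TATA box TATAAA. Ccl20 held GGGAAAACCC from position -81 relative to the start, Ccl8 held TATAAA from position -32, and no match to any of the 3 lay in the Ccl3 window. Of the promoters not shown, that of Ccl28 held the AP-1 match TGAGTCA from position 21, and that of Ccl22 held no match. Among 32851 promoters of the same length, 5.78% held the NF-kappaB form, 7.81% the AP-1 motif and 13.6% the TATA box.

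Each value is a log2 level relative to the middle of the 12 arrays for the same probe set, which lies at 0. Such values compare 1 gene between mice and say nothing of which chemokine is the more abundant. No source states the base of the logarithm or its sign, so base 2, with more RNA giving a larger value, is an assumption. For the same reason the defining markers of colon could not be checked for presence, only compared between arrays. The arrays of the 3 wild-type water mice and wild-type DSS 1 stood apart. Averaged over 16 housekeeping genes, the level was -1.71 to -0.99 in those 4 arrays and 0.00 to 0.44 in the other 8, while the median of 1056 odorant and pheromone receptor genes was 0.38 to 0.42 in the 4 and -0.12 to 0.05 in the 8. Smooth muscle markers, 10 genes, averaged 2.76 to 2.77 in Parp1-/- DSS 1 and Parp1-/- water 2 and 3 and -0.56 to 0.06 in the other 9 arrays. Parp1 itself, which checks the labels, was at -0.22, -0.09 and 0.03 in Parp1-/- DSS and -0.03, -0.08 and -0.01 in Parp1-/- water, against 0.01, 0.51 and 0.77 in wild-type DSS and -0.41, 1.15 and 0.53 in wild-type water. Of the arrays labelled wild type, water 1 thus lay below every Parp1-/- array and DSS 1 within their range, and whether the probes lie in the deleted stretch of Parp1 is not known here.

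Ccl3, also called macrophage inflammatory protein 1-alpha, had the largest difference between DSS and water among the 10 chemokines in both genotypes. It was at 0.54, 4.60 and 0.45 in Parp1-/- DSS and at -1.07, -1.57 and -1.47 in Parp1-/- water. In wild-type mice it was at 3.73, 4.65 and 2.27 in DSS and at -0.50, -0.46 and -0.45 in water. Every DSS array thus lay above every water array, 6 against 6, which held for 0.666% of all genes in that direction and for 0.788% in either. Averaged over both genotypes Ccl3 rose by log2 3.63 ± 0.65 (SE, 6 mice against 6), with a limma adjusted p of 0.00931, and it was the only one of the 10 to be called in this comparison at an adjusted p under 0.05, where 4.64% of all genes were called and 4.15% were called higher.

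Within wild-type mice Ccl3 rose by 4.02 ± 0.92 (SE, 3 mice against 3; limma adjusted p of 0.0167) and was the only called member, beside 8.89% of all genes called higher and 4.16% called lower. This call was lost after quantile normalization (limma adjusted p of 0.0644), with the trend and robust options of limma (0.083) and without wild-type DSS 2 (0.0782). It was also lost in a fit of 9 arrays without the 3 with high smooth muscle genes, at the same difference of 4.02. That fit left Parp1-/- water 1 as the only mouse of its group. Without wild-type DSS 1 the difference was 3.93, with a limma adjusted p of 0.0198. All wild-type water arrays stood apart, but of the wild-type DSS arrays only DSS 1 did. DSS and the state of the arrays can thus not be fully told apart in wild-type mice. This also limits the average of both genotypes and the difference of the DSS responses. With DSS in wild-type mice, 8 of 16 housekeeping genes were called higher. Among the arrays that stood apart, Ccl3 was at 3.73 in wild-type DSS 1 and at -0.50 to -0.45 in wild-type water. Within Parp1-/- mice the difference was 3.23 ± 0.92, with an unadjusted p of 0.00478 and a limma adjusted p of 0.902. The high value there came from Parp1-/- DSS 2, without which the difference was 1.87. With array weights Ccl3 at 3.59 and Ccl7 at 1.44 were called in Parp1-/- mice, with limma adjusted p of 0.0228 and 0.0448. The averaged call was lost with the trend and robust options of limma (adjusted p of 0.0774) and in the fit of 9 arrays.

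**Figure D1:**
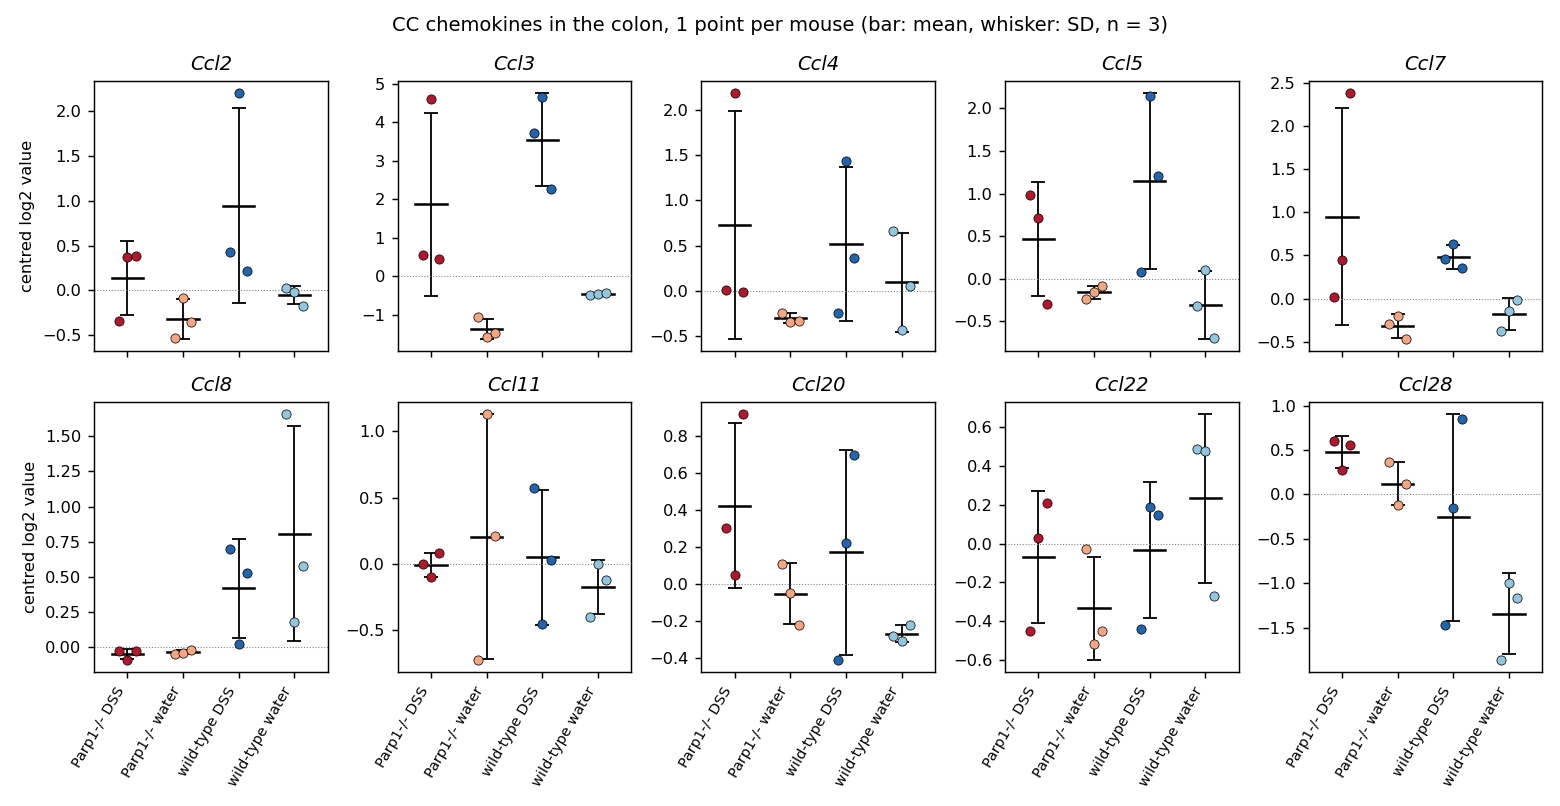
Centred log2 values (y axis, scaled separately for each gene) of the 10 CC chemokines in the 4 groups, with 1 point per mouse, a bar for the mean and a whisker for the SD (n = 3). Every DSS value of Ccl3 lies above its water values, with 4.60 in Parp1-/- DSS 2 and 4.65 in wild-type DSS 2 as the highest, whereas the groups of Ccl11 overlap.

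Leukocyte markers were read beside Ccl3. Of 8 neutrophil markers, 5 were called higher with DSS in the average of both genotypes, beside 4.15% of all genes. Colon epithelial markers had 7 of 12 called higher in the same average. Within Parp1-/- mice 0 neutrophil markers and 0 monocyte and macrophage markers were called, where 0.00938% of all genes were. The neutrophil mean was 0.12 to 1.11 in Parp1-/- DSS and -1.02 to -0.37 in Parp1-/- water, against 0.60 to 1.59 in wild-type DSS and -0.49 to -0.26 in wild-type water. It was highest in wild-type DSS 2 and Parp1-/- DSS 2, the same arrays in which Ccl3 was highest. The order differed in the other wild-type DSS arrays. Ccl3 was at 3.73 in DSS 1 and 2.27 in DSS 3, where the neutrophil mean was 0.60 and 1.01. Monocyte and macrophage markers had 4 of 12 called higher in the average of both genotypes. Their mean was 0.19 to 0.47 in Parp1-/- DSS and -0.29 to 0.27 in Parp1-/- water, against -0.09 to 0.75 in wild-type DSS and -0.59 to -0.21 in wild-type water. The part of these cells in the Ccl3 difference was not tested, and in whole colon more cells of a type and more RNA per cell cannot be told apart. Of 16993 named genes, those whose values lay closest to Ccl3 over the 12 arrays were Il1b and Il1a, which encode the cytokines interleukin-1 beta and alpha, and Acod1, the itaconate-forming enzyme of activated macrophages. Their root mean square differences from Ccl3 were 0.45, 0.50 and 0.57 on the log2 scale.

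**Figure D2:**
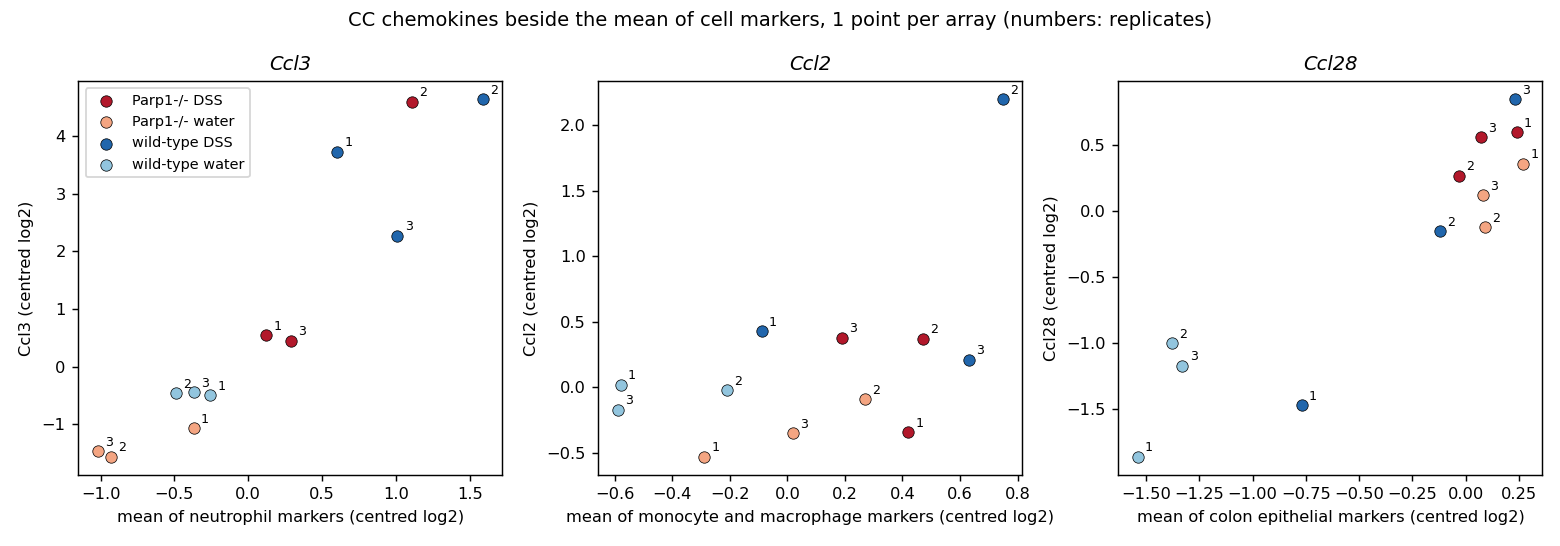
Centred log2 value of Ccl3, Ccl2 and Ccl28 (y axes) against the mean centred log2 value of neutrophil, monocyte and macrophage, and colon epithelial markers (x axes), with 1 point per array, numbered by replicate. Wild-type DSS 2 and Parp1-/- DSS 2 have the highest values of Ccl3 and of the neutrophil markers, and the 3 wild-type water arrays and wild-type DSS 1 have the lowest values of Ccl28 and of the epithelial markers.

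Ccl4 and Ccl5 were not called in either genotype. Ccl4, macrophage inflammatory protein 1-beta, was at 0.01, 2.18 and -0.01 in Parp1-/- DSS and at -0.24, -0.34 and -0.33 in Parp1-/- water, so that these groups did not overlap. In wild-type mice it was at -0.25, 1.43 and 0.36 in DSS and at 0.66, -0.43 and 0.05 in water, where the groups overlapped. The value of DSS 2 stood above the rest in each genotype. The difference was 1.03 ± 0.57 in Parp1-/- mice and 0.42 ± 0.57 in wild-type mice (SE, 3 mice against 3), and neither passed, the limma adjusted p being 1 and 0.656. Without DSS 2 of the same genotype the difference was 0.30 in Parp1-/- mice and -0.04 in wild-type mice. Closest to Ccl4 were Cxcl3, a chemokine for neutrophils, Nlrp3, a sensor of the inflammasome, and Slc11a1, a metal transporter of phagocytes, at 0.35, 0.40 and 0.42.

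Ccl5, or RANTES, which T cells and other leukocytes release, was at 0.98, 0.71 and -0.29 in Parp1-/- DSS and at -0.24, -0.16 and -0.08 in Parp1-/- water. In wild-type mice it was at 0.08, 2.14 and 1.21 in DSS and at -0.32, 0.10 and -0.70 in water. In each genotype 2 of the 3 DSS arrays lay above all water arrays, while Parp1-/- DSS 3 lay below the water arrays and wild-type DSS 1 among them. The difference was 0.63 ± 0.46 in Parp1-/- mice, with a limma adjusted p of 1, and 1.45 ± 0.46 in wild-type mice, with an adjusted p of 0.0609. In wild-type mice its 95% confidence interval ran from 0.44 to 2.46. Without wild-type DSS 1, which stood apart, the wild-type difference was 1.98 with a limma adjusted p of 0.00393. That setting puts DSS arrays that did not stand apart against water arrays that all did. DSS and the state of the arrays cannot be told apart in it. Without wild-type DSS 2, which held the highest Ccl5, the wild-type difference was 0.95 with an adjusted p of 0.217. The mean of 7 T cell markers was -0.09 to 0.03 in Parp1-/- DSS and -0.26 to 0.04 in Parp1-/- water, against -0.02 to 0.31 in wild-type DSS and 0.05 to 0.18 in wild-type water. Tnfsf13b, the B cell survival factor BAFF, Tnfaip2 and Siglece, a myeloid receptor for sialic acid, were closest to Ccl5, at 0.29, 0.37 and 0.38.

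Ccl22, a product of dendritic cells and macrophages, did not pass in either genotype. It was at -0.45, 0.03 and 0.21 in Parp1-/- DSS and at -0.03, -0.52 and -0.45 in Parp1-/- water, against -0.44, 0.19 and 0.15 in wild-type DSS and 0.49, 0.48 and -0.27 in wild-type water. The groups overlapped throughout. The difference was 0.26 ± 0.27 in Parp1-/- mice and -0.27 ± 0.27 in wild-type mice, with limma adjusted p of 1 and 0.532. Its 95% confidence interval in the average of both genotypes ran from -0.42 to 0.42. Sash3, Fhit and Stat4 were closest to Ccl22, at 0.15, 0.16 and 0.23, and of these Sash3 encodes a lymphocyte adaptor protein and Stat4 a transcription factor of helper T cells.

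Among the monocyte chemokines, Ccl2, or monocyte chemoattractant protein 1, was at -0.34, 0.37 and 0.38 in Parp1-/- DSS and at -0.53, -0.09 and -0.35 in Parp1-/- water. In wild-type mice it was at 0.43, 2.20 and 0.21 in DSS and at 0.02, -0.02 and -0.17 in water. All 3 wild-type DSS arrays lay above the 3 water arrays, which all stood apart. Of all genes 11.4% were wholly higher in this comparison and 23.6% did not overlap in either direction. Wild-type DSS 2 lay far above the other DSS arrays, while the Parp1-/- groups overlapped. The difference was 0.46 ± 0.43 in Parp1-/- mice and 1.0 ± 0.43 in wild-type mice, with limma adjusted p of 1 and 0.141. Without wild-type DSS 2 the wild-type difference was 0.38. With array weights, in which that array counted most among the wild-type arrays, the difference was 2.10 with a limma adjusted p of 0.00728.

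Ccl7, monocyte chemoattractant protein 3, was at 0.02, 0.45 and 2.38 in Parp1-/- DSS and at -0.29, -0.20 and -0.47 in Parp1-/- water, against 0.46, 0.63 and 0.35 in wild-type DSS and -0.38, -0.14 and -0.02 in wild-type water. Every DSS array lay above every water array, as for Ccl3 and for 0.666% of all genes. The nearest DSS and water values were 0.45 and -0.45 for Ccl3, but only 0.02 and -0.02 for Ccl7. The highest value was that of Parp1-/- DSS 3, in which neither Ccl2 nor Ccl3 was highest. In the average of both genotypes Ccl7 was higher by 0.97 ± 0.32 (SE, 6 mice against 6), with an unadjusted p of 0.0121 and a limma adjusted p of 0.132. Without Parp1-/- DSS 3 the difference was 0.61 and its adjusted p was 0.0439, so that Ccl7 was called there with a smaller difference. The genes closest to Ccl7 were the transporter Slc4a11, Hspa12a and the integrin Itgb8, at 0.37, 0.39 and 0.43, whereas those closest to Ccl2 were Tagap, Gpr141 and Slfn1, at 0.24, 0.24 and 0.26.

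Ccl8, monocyte chemoattractant protein 2, did not follow Ccl2 and Ccl7. It was at -0.03, -0.09 and -0.03 in Parp1-/- DSS and at -0.05, -0.04 and -0.02 in Parp1-/- water, so that all 6 Parp1-/- arrays lay within 0.1 of the middle. In wild-type mice it was at 0.70, 0.02 and 0.53 in DSS and at 1.66, 0.18 and 0.58 in water. None of the 6 wild-type values was as low as the highest Parp1-/- value, though the nearest were 0.02 and -0.02. Of the wild-type values, 0.70, 1.66, 0.18 and 0.58 came from the arrays that stood apart, and 0.02 and 0.53 did not. How many of all genes separate the genotypes over both treatments was not counted. In water alone 55.4% of all genes did so in either direction, and in DSS alone 6.55%. The difference between DSS and water was -0.02 ± 0.31 in Parp1-/- mice and -0.39 ± 0.31 in wild-type mice, with limma adjusted p of 1 and 0.430.

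Ccl11, the eosinophil chemokine, showed no difference past the threshold. It was at 0.00, -0.10 and 0.08 in Parp1-/- DSS and at -0.72, 1.13 and 0.21 in Parp1-/- water, against 0.57, -0.45 and 0.03 in wild-type DSS and -0.40, 0.00 and -0.12 in wild-type water. Both the highest and the lowest of the 12 values came from Parp1-/- water mice. The difference was -0.21 ± 0.39 in Parp1-/- mice and 0.22 ± 0.39 in wild-type mice, with limma adjusted p of 1 and 0.735, and the 95% confidence interval of the average ran from -0.60 to 0.61. In the fit of 9 arrays without those with high smooth muscle genes the Parp1-/- difference was 0.70. It rests on Parp1-/- water 1 as the only water mouse left in that genotype, at -0.72. Its closest genes were Reln, a secreted matrix protein, Flt4, the growth factor receptor of lymphatic endothelium, and the sulfatase Sulf1, at 0.24, 0.24 and 0.25. Of 4 eosinophil markers measured, 0 were called with DSS in either genotype, and their mean was -0.08 to 0.02 in Parp1-/- DSS and -0.12 to 0.04 in Parp1-/- water, against -0.10 to 0.33 in wild-type DSS and 0.06 to 0.38 in wild-type water.

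For both epithelial chemokines the difference between DSS and water was positive in each genotype, and none of these differences passed. Ccl20 was at 0.30, 0.05 and 0.92 in Parp1-/- DSS and at 0.11, -0.05 and -0.22 in Parp1-/- water, against -0.41, 0.22 and 0.70 in wild-type DSS and -0.28, -0.31 and -0.22 in wild-type water. The Parp1-/- groups overlapped, and in wild-type mice 2 of 3 DSS arrays lay above the water arrays while DSS 1 lay below them. The difference was 0.47 ± 0.28 in Parp1-/- mice and 0.44 ± 0.28 in wild-type mice, with limma adjusted p of 1 and 0.313. Without wild-type DSS 1 it was 0.73 in wild-type mice, with a limma adjusted p of 0.0452, and without wild-type DSS 3 it was 0.18, with 0.732. Leaving out wild-type DSS 1 again put DSS arrays that did not stand apart against water arrays that all did. The highest array was Parp1-/- DSS 3, as for Ccl7. Closest to Ccl20 were Ankrd44, Fam160a1 and the phosphatase Ptpre, at 0.19 each.

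Ccl28 was at 0.60, 0.27 and 0.56 in Parp1-/- DSS and at 0.36, -0.12 and 0.12 in Parp1-/- water. In wild-type mice it was at -1.47, -0.15 and 0.85 in DSS and at -1.86, -1.0 and -1.17 in water. The 4 arrays that stood apart were the 4 lowest, and the 3 wild-type DSS mice ran from near the lowest to the highest value of all 12. The difference between DSS and water was 0.36 ± 0.46 in Parp1-/- mice and 1.08 ± 0.46 in wild-type mice, with limma adjusted p of 1 and 0.138. Without wild-type DSS 1 it was 1.69 in wild-type mice, with a limma adjusted p of 0.00348, and without wild-type DSS 3 it was 0.53, with 0.406. The wild-type water arrays all stood apart, so without wild-type DSS 1 treatment and the state of the arrays cannot be told apart. Colon epithelial markers had 8 of 12 called higher with DSS in wild-type mice, and housekeeping genes 8 of 16. The epithelial mean was -0.03 to 0.24 in Parp1-/- DSS and 0.08 to 0.27 in Parp1-/- water, against -0.77 to 0.23 in wild-type DSS and -1.54 to -1.33 in wild-type water, and the part of either list in the Ccl28 values was not tested. The genes closest to Ccl28 were Ildr1, a protein of tricellular junctions, Slc5a8, a transporter of short-chain fatty acids in the colon epithelium, and Nadsyn1, an enzyme of NAD synthesis, at 0.17, 0.20 and 0.21.

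By count, 8 of the 10 chemokines were above 0 with DSS in Parp1-/- mice and 8 of 10 in wild-type mice, where 53.1% and 45.8% of all genes were above 0. The median difference of the 10 was 0.47 in Parp1-/- mice and 0.55 in wild-type mice, beside medians of 0.01 and -0.05 over all genes. In Parp1-/- mice 0 of 10 were called by limma, where 0.00938% of all genes were called. There 2 of the 10, Ccl3 and Ccl7, had an unadjusted limma p under 0.05, beside 609 of 21314 genes. In wild-type mice 4 of the 10, Ccl2, Ccl3, Ccl5 and Ccl28, had one, beside 6421 of 21314 genes. The groups did not overlap for Ccl3, Ccl4 and Ccl7 in Parp1-/- mice, beside 7.82% of all genes wholly higher with DSS and 4.7% wholly lower, and for Ccl2, Ccl3 and Ccl7 in wild-type mice, beside 11.4% of all genes wholly higher and 23.6% without overlap in either direction. The spread between mice of a group was wide for most of the set: the pooled SD within groups was 1.33 for Ccl3, 0.81 for Ccl4 and 0.65 for Ccl5, and it ranged from 0.35 for Ccl22 to 0.64 for Ccl28 in the remaining members, against a median of 0.30 over all genes.

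**Figure D3:**
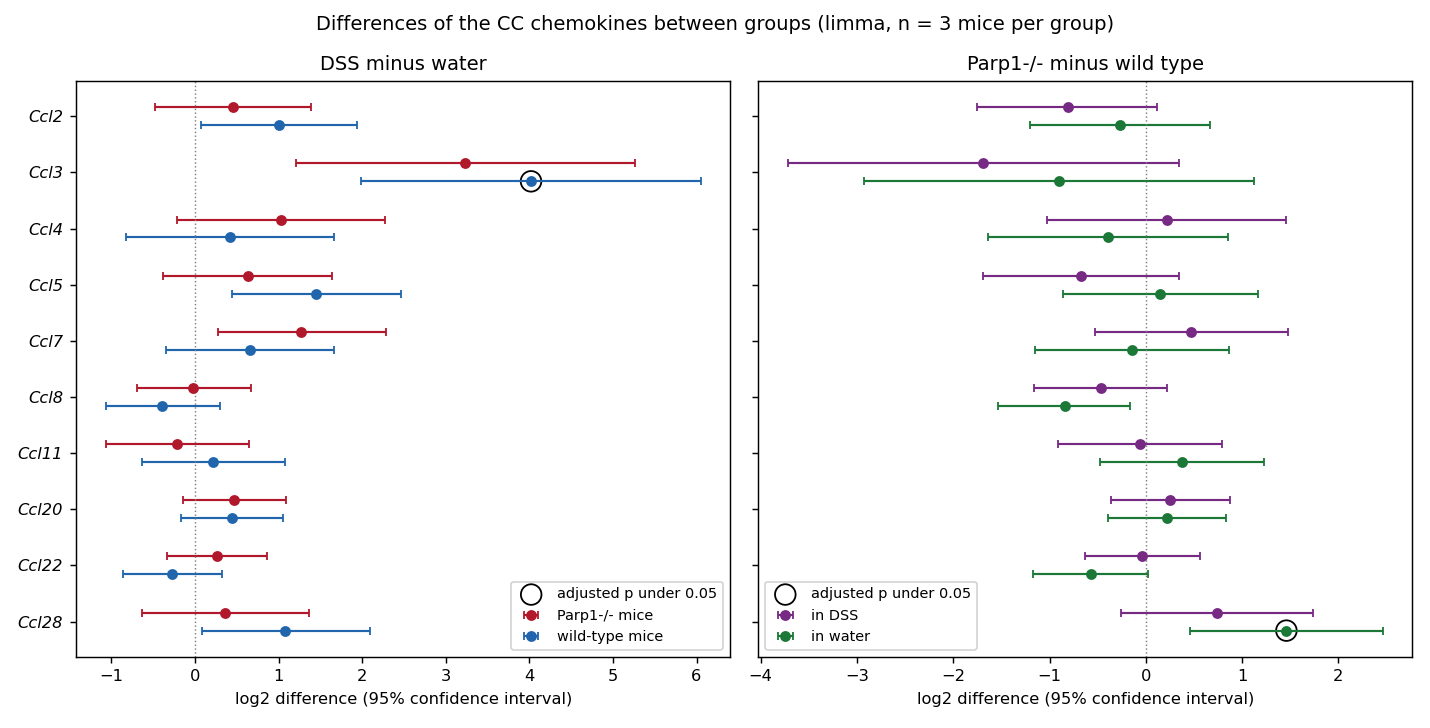
Log2 differences (x axis) of the 10 CC chemokines with 95% confidence intervals from limma, for DSS minus water in each genotype (left) and for Parp1-/- minus wild type in each treatment (right), with n = 3 mice per group. Black circles mark an adjusted p under 0.05, held by Ccl3 in wild-type mice and by Ccl28 between genotypes in water.

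Whether chemokines of different target cells responded unequally was examined through the difference of 2 genes within each array, in which a shift shared by all genes of an array cancels. Monocyte was set against epithelial (Ccl2 minus Ccl28), T cell against monocyte (Ccl5 minus Ccl2), eosinophil against monocyte (Ccl11 minus Ccl2) and the epithelial pair against each other (Ccl20 minus Ccl28). The arrays that stood apart had low housekeeping genes but high odorant and pheromone receptor genes, which is no shared shift and does not cancel. Ccl28 was lowest in them. Ccl2 minus Ccl28 was 1.90 in wild-type DSS 1 and 0.98 to 1.88 in wild-type water. It was 2.35 in wild-type DSS 2, -0.64 in wild-type DSS 3 and -0.94 to 0.09 in Parp1-/- mice. Ccl11 minus Ccl2 averaged -0.14 ± 0.43 in Parp1-/- DSS and 0.53 ± 0.70 in Parp1-/- water, against -0.89 ± 1.53 in wild-type DSS and -0.11 ± 0.26 in wild-type water (SD, n = 3 each). The DSS value was lower in both genotypes, and the average change of -0.73 gave p = 0.16 in a two-sided exact permutation test over 400 arrangements of the treatment within genotypes, where the smallest possible is 0.005. Without wild-type DSS 2, at -2.65, the change was -0.29, and over all left-out arrays it ran from -0.98 to -0.29. The average change was 0.31 for Ccl5 minus Ccl2, -0.26 for Ccl20 minus Ccl28 and 0.01 for Ccl2 minus Ccl28, with exact permutation p of 0.42, 0.375 and 0.98. Adjusted over the 4 pairs, none was under 0.56, so a difference between these chemokines in their response was not detectable with 12 mice.

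The genotypes were then compared, first in mice given DSS. Ccl3 averaged 1.86 in Parp1-/- DSS and 3.55 in wild-type DSS, a difference of -1.69 ± 0.92 (SE, 3 mice against 3) with a 95% confidence interval from -3.72 to 0.34. It was -3.06 without Parp1-/- DSS 2, -1.03 without Parp1-/- DSS 1 and -0.98 without Parp1-/- DSS 3. Ccl2 differed by -0.81 ± 0.43 and Ccl5 by -0.67 ± 0.46, whereas Ccl28 differed by 0.74 ± 0.46 and Ccl7 by 0.47 ± 0.46. By limma 0 of the 10 were called, 0 had an unadjusted p under 0.05, and each of these 5 had an adjusted p of 0.872. Of all genes 0% were called in this comparison, and 593 of 21314 had an unadjusted p under 0.05. The groups overlapped for 9 of the 10. The exception was Ccl8, lower in all 3 Parp1-/- mice by 0.47 on average, beside 4.52% of all genes wholly lower, 2.04% wholly higher and 6.55% in either direction, also with an adjusted p of 0.872. Without wild-type DSS 1 the differences were -1.60 for Ccl3, -1.07 for Ccl2 and -1.21 for Ccl5, none of them called, and 0.13 for Ccl28. With array weights, which counted wild-type DSS 2 at 5.3 and wild-type DSS 1 at 0.15, Ccl2 at -1.81 and Ccl5 at -1.63 were called lower in Parp1-/- mice (limma adjusted p of 0.0178 and 0.0246). Wild-type DSS 2 is the array with the highest Ccl2 and Ccl5, and without it the differences of both were -0.18.

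In mice given water, Ccl28 was higher in Parp1-/- mice by 1.46 ± 0.46, with a limma adjusted p of 0.0326, and its groups did not overlap. It was the only member called, beside 31.6% of all genes called, 17.9% higher and 13.7% lower. Of the 3 arrays it was set against, wild-type water 1 is the one whose Parp1 value went against its label, and without it the difference was 1.2. The 3 wild-type arrays all stood apart in this comparison, and colon epithelial markers had 10 of 12 called higher in Parp1-/- mice and housekeeping genes 11 of 16. Without these arrays no comparison in water remains, so genotype and the state of the arrays cannot be told apart. The call of Ccl28 was lost after quantile normalization, at 0.90 with a limma adjusted p of 0.116. It was also lost without any of Parp1-/- water 1, 2 and 3 or wild-type water 1 and 3 (adjusted p of 0.0809, 0.0692, 0.0882, 0.107 and 0.059). Without the arrays with high smooth muscle genes the call was lost as well, at 1.70. In that fit Parp1-/- water 1 was the only mouse of its group.

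Ccl3 was lower in each of the 3 Parp1-/- water mice than in each wild-type water mouse, by 0.90 ± 0.92 on average with an adjusted p of 0.449. Fitted on these 6 arrays alone, whose values of Ccl3 varied little, the same difference had an adjusted p of 0.00911. Ccl8 was also lower in all Parp1-/- water mice, at -0.84 ± 0.31 with an adjusted p of 0.0594, beside 29.2% of all genes wholly lower, 26.2% wholly higher and 55.4% in either direction. Wild-type water 1 held the highest Ccl8 of all arrays, and without it the difference was -0.42, whereas without wild-type water 2 it was -1.16 and called, with an adjusted p of 0.0188. Its closest genes over the 12 arrays were Ear6, a ribonuclease of the eosinophil family, Lca5l and Svs6, a protein of the seminal vesicle, at 0.17, 0.20 and 0.21. The odorant and pheromone receptor genes, which are background for colon, were higher in the same wild-type water arrays and in wild-type DSS 1. Their part in the Ccl8 values was not tested.

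The difference between the DSS responses of the genotypes, Parp1-/- minus wild type, ran from -0.82 ± 0.65 for Ccl5 to 0.62 ± 0.65 for Ccl7 among the 10 members. For Ccl3 it was -0.79 ± 1.31, with a 95% confidence interval from -3.65 to 2.08, and for Ccl2 -0.54 ± 0.60, from -1.87 to 0.78. By limma 0 of 10 were called, beside 2.54% of all genes called, 2.33% of all being lower. An unadjusted p under 0.05 was held by 0 of the 10, beside 3737 of 21314 genes. Ccl22 had the smallest adjusted p, 0.485, at 0.53 ± 0.38. After quantile normalization the value of Ccl3 turned to 0.63, so no direction can be given for it. Over the left-out arrays it ran from -2.15 without Parp1-/- DSS 2 to -0.08 without Parp1-/- DSS 3. With array weights Ccl2 at -1.62 and Ccl5 at -1.82 were called (limma adjusted p of 0.0452 and 0.0307).

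The rest of the family was described from lists of other CC chemokines, CC chemokine receptors and atypical receptors. In wild-type mice 3 of 9 other CC chemokines measured were called higher with DSS: Ccl6 by 1.55 ± 0.37 and Ccl9 by 1.35 ± 0.37, myeloid chemokines of rodents that act on Ccr1, and Ccl25 by 0.81 ± 0.21, the ligand of Ccr9, beside 8.89% of all genes called higher. The 4 arrays that stood apart were the 4 lowest for Ccl6, at -1.43 in wild-type DSS 1 and -1.90, -1.83 and -2.72 in wild-type water, and for Ccl25, at -0.34 in wild-type DSS 1 and -0.69, -0.97 and -0.94 in wild-type water. Of 10 CC chemokine receptors measured, Ccr9, a gut-homing receptor of lymphocytes, was called lower, at -0.85 ± 0.21 with a limma adjusted p of 0.0218. In Parp1-/- mice 0 of 9 chemokines, 0 of 10 receptors and 0 of 4 atypical receptors were called by limma, with unadjusted p of 0.0948 for Ccl9 at -0.68, 0.119 for Ccl17 at 0.41, 0.0783 for Ccr7 at 0.64 and 0.0858 for Ccrl2 at 1.10. Among atypical receptors the smallest p in wild-type mice were those of Ackr3 at 0.36 and Ackr4 at -0.19, and in Parp1-/- mice those of Ackr1 at -0.14 and Ackr3 at -0.04, and none passed.

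In the average of both genotypes Ccrl2, a receptor-like protein that binds chemerin, had the smallest p of the receptors, at 1.21 ± 0.41 with a limma adjusted p of 0.140, followed by Ccr9 at -0.38. Of the other CC chemokines Ccl6 at 0.61 and Ccl25 at 0.30 had the smallest p, and of the atypical receptors Ackr3 at 0.16 and Ackr1 at -0.10, none of them passing. Ccrl2 was at -0.08, 1.92 and 0.08 in Parp1-/- DSS and at -0.66, -0.13 and -0.59 in Parp1-/- water, against 0.92, 2.52 and 0.27 in wild-type DSS and -0.32, 0.32 and -0.25 in wild-type water. DSS 2 was the highest array in each genotype, as for Ccl4. In water, Parp1-/- mice had 3 of 9 other CC chemokines called higher, Ccl6 by 2.69 ± 0.37, Ccl9 by 1.73 ± 0.37 and Ccl25 by 1.12 ± 0.21, and 4 called lower, namely Ccl12, a monocyte chemokine of mice, at -0.66, Ccl26 at -0.66, Ccl24, an eotaxin, at -0.53, and Ccl1, a ligand of Ccr8, at -0.53. Of all genes, 17.9% were called higher and 13.7% lower in this comparison, whose 3 wild-type arrays are among those that stood apart, with the Ccl6 and Ccl25 values moving with them. Receptors called lower there were 3 of 10, Ccr9 at -0.90, Ccr4 at -0.65 and Ccr8 at -0.58, whereas Ackr4 at -0.41 and Ackr2 at 0.34 did not pass. Ccl12 was at 0.49 to 0.73 in wild-type water, and wild-type DSS 1 was at 0.72 while wild-type DSS 2 and 3 were at -0.02 and -0.04, so that its high arrays were the 4 that stood apart. The same 4 arrays were the highest for Ccl26, Ccl24, Ccl1 and Ccr4, with 0.60, 0.41, 0.56 and 0.80 in wild-type DSS 1. They were not for Ccr9 and Ccr8, at -0.03 and 0.11 in that array. In DSS 0 of 9 chemokines, 0 of 10 receptors and 0 of 4 atypical receptors differed between genotypes by limma. The smallest unadjusted p of each list were 0.0504 for Ccl6 at 0.82 and 0.228 for Ccl26 at -0.25, 0.0272 for Ccr4 at -0.51 and 0.0496 for Ccr1 at -0.59, and 0.0398 for Ackr3 at -0.46 and 0.251 for Ackr2 at 0.28. The DSS responses of the genotypes, Parp1-/- minus wild type, likewise gave 0 calls in the 3 lists. Those of smallest p were Ccl9 at -2.02 with a limma adjusted p of 0.0726, Ccl6 at -1.87 with 0.0968, Ccr9 at 0.94 with 0.130, Ccr8 at 0.67 with 0.184, Ackr3 at -0.40 with 0.482 and Ackr4 at 0.19 with 0.777.

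**Figure D4:**
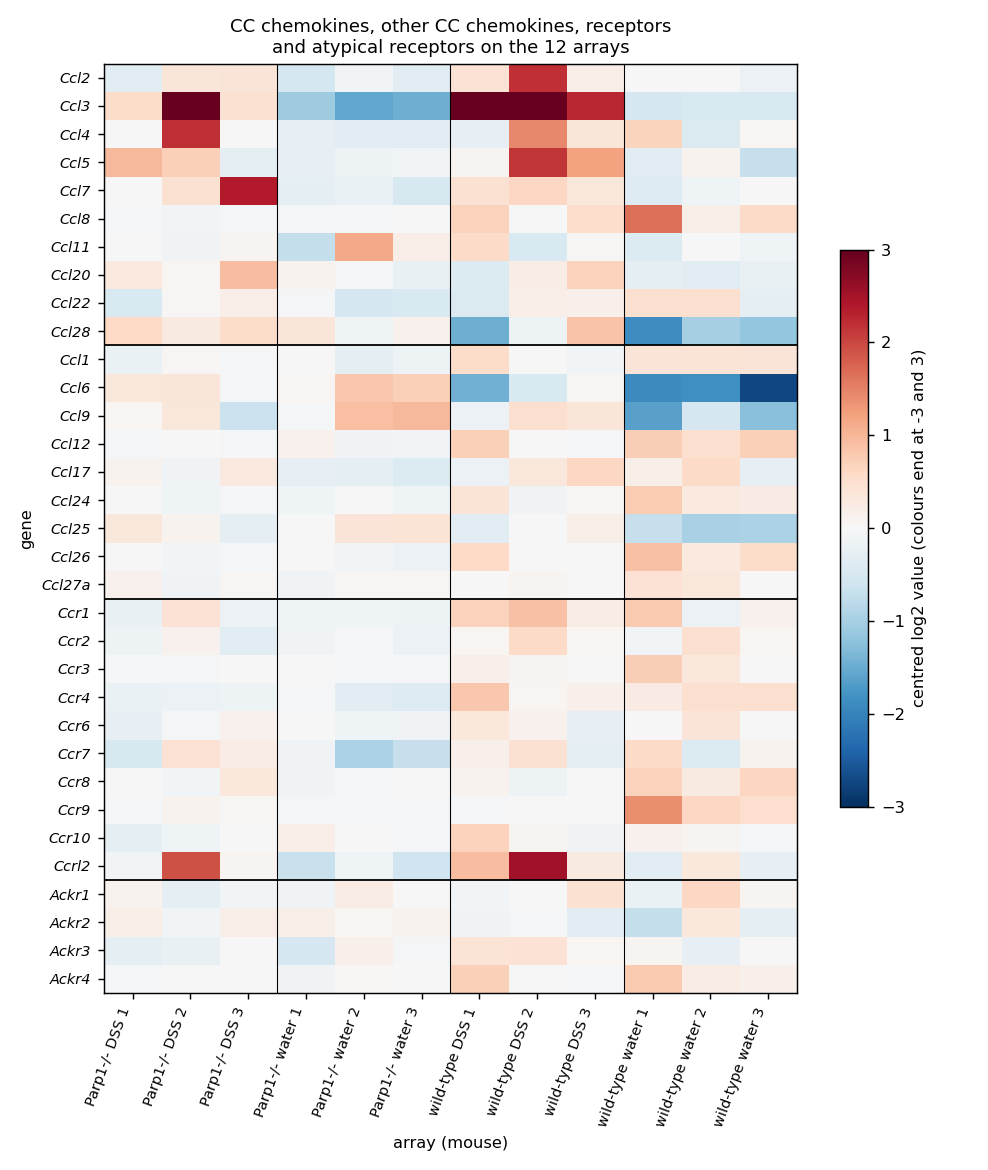
Centred log2 values (colour, ending at -3 and 3) of the 10 CC chemokines and, below each black line, of 9 other CC chemokines, 10 CC chemokine receptors and 4 atypical receptors (rows) on the 12 arrays (columns). Ccl3 is highest in the DSS arrays, Ccl4 and Ccrl2 are highest in DSS 2 of each genotype, and Ccl6, Ccl9, Ccl25 and Ccl28 are low in the wild-type water arrays.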

How the data were processed

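The labels' protocols describe Trizol and column extraction of total RNA from whole, frozen colon and Affymetrix biotin labelling, and name no scan date or slide. The sample titles end in numbers of unstated meaning, and those of the arrays that stood apart were the lowest. Whether these numbers give an order of processing is not known. The deposited values, 31693 probe sets by 12 arrays, were read as log2 from -4.83 to 5.47, with every probe set's median within 5e-07 of 0. How the authors corrected background or normalized, and with which software, was not stated, and signal over background is unknown, so dim probe sets were not filtered. Array medians ran from -0.0438 to 0.0999. No 2 arrays were identical.

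GEO's platform annotation gave 22586 probe sets 1 symbol, 1756 several and 7351 none, and probe sets of 1 gene were averaged. In limma 3.58.1 (R 4.3.3), lmFit and eBayes fitted 4 group means to 21314 genes. Benjamini-Hochberg adjustment ran over all genes, and an adjusted p under 0.05 was a call. Errors of differences are standard errors of this model. Replicate numbers only name the mice. Likeness of 2 genes was the root mean square difference over 12 arrays, without predicted genes, clones, small RNAs and receptor segments. Figures used matplotlib 3.10.9.

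The members and lists were chosen with earlier results of these data known. Every member was named, and of the other family lists each called gene or, where none was called, the 2 of smallest p. Alternatives were quantile normalization, equal array medians, single probe sets, trend and robust eBayes, array weights (gene-by-gene method, since the REML estimate did not converge), only the groups compared, an adjusted p under 0.01, leaving out the arrays that stood apart or had high smooth muscle genes, and leaving out each array.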

Additional observations from a re-analysis of the deposited data

How the results depend on the processing

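The direction of Ccl3 with DSS held in wild type, in Parp1-/- and on average under every alternative run, at 3.05 to 4.93 in wild type and 2.94 to 4.26 on average. No paired analysis was possible because the labels give the mice no shared replicate numbers. Comparisons that need wild-type water could not be run without those arrays. With array medians set equal, the median of all genes between genotypes in water was 0.038, against -0.072 in the deposited values. The cause of the changes below was not tested, and signal over background was not at hand to set a limit for dim probe sets. Among left-out arrays, wild-type DSS 1 gave the most calls with DSS in wild type, 6865 genes and 4 chemokines (Ccl3, Ccl5, Ccl20 and Ccl28), and wild-type DSS 2 the fewest, 1211 genes and 0 chemokines. Without wild-type DSS 1, every wild-type water array stood apart and no wild-type DSS array did. In water, Ccl22 was called without wild-type water 3 (-0.82, limma adjusted p of 0.0453). Of the values of single chemokines under alternatives, 810 kept their direction and side of the threshold, 54 turned sign, 23 gained a call and 13 lost one. Part of this was fixed beforehand, as some settings cannot change a difference or its sign. These are single probe sets, since each chemokine had 1, trend and robust eBayes, and fitting only the groups compared. Leaving out arrays of the other genotype also leaves a DSS difference as it was. The same limit holds for the direction of Ccl3 above. 

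At an adjusted p under 0.01 the number of genes called was 1025 for DSS in wild type, 1 for DSS in Parp1-/-, 373 for DSS on average, 2429 for genotype in water and 136 for difference of responses, and of the 10 chemokines, calls numbered 0 for DSS in wild type and 0 for genotype in water. After quantile normalization the number of genes called was 232 for DSS in wild type, 85 for DSS in Parp1-/-, 411 for DSS on average, 2219 for genotype in water and 0 for difference of responses, and of the 10 chemokines, calls numbered 0 for DSS in wild type and 0 for genotype in water. The sign turned, to 0.00 for Ccl11 (DSS in Parp1-/-), 0.23 for Ccl22 (DSS on average), -0.11 for Ccl5 (genotype in water), 0.11 for Ccl11 (genotype in DSS), 0.63 for Ccl3 (difference of responses) and 0.02 for Ccl20 minus Ccl28. With array medians set equal the sign turned, to 0.02 for Ccl22 (DSS on average) and -0.04 for Ccl20 (difference of responses). With trend and robust eBayes the number of genes called was 7 for DSS in Parp1-/-, 654 for DSS on average and 133 for difference of responses, and of the 10 chemokines, calls numbered 0 for DSS in wild type and 0 for DSS on average. With array weights the number of genes called was 5980 for DSS in wild type, 1638 for DSS in Parp1-/-, 4509 for DSS on average, 631 for genotype in DSS and 5463 for difference of responses, and of the 10 chemokines, calls numbered 4 for DSS in wild type, 2 for DSS in Parp1-/-, 4 for DSS on average, 2 for genotype in water, 2 for genotype in DSS and 2 for difference of responses. The sign turned, to -0.27 for Ccl11 (DSS in wild type), -0.37 for Ccl11 (DSS on average), 0.21 for Ccl22 (DSS on average), -0.46 for Ccl4 (genotype in DSS), 0.38 for Ccl11 (genotype in DSS) and -0.16 for Ccl4 (difference of responses). Fitting only the groups compared the number of genes called was 641 for DSS in wild type and 9 for DSS in Parp1-/-, and of the 10 chemokines, calls numbered 2 for genotype in water. Without the 4 arrays that stood apart the number of genes called was 13 for DSS in Parp1-/-. The sign turned, to -0.16 for Ccl4 (genotype in DSS), 0.20 for Ccl11 (genotype in DSS) and -0.04 for Ccl20 (genotype in DSS). Without the 3 arrays with high smooth muscle genes the number of genes called was 1024 for DSS in wild type, 0 for DSS in Parp1-/-, 9 for DSS on average, 147 for genotype in water and 0 for difference of responses, and of the 10 chemokines, calls numbered 0 for DSS in wild type, 0 for DSS on average and 0 for genotype in water. The sign turned, to 0.70 for Ccl11 (DSS in Parp1-/-), -0.54 for Ccl11 (genotype in water), 0.15 for Ccl22 (genotype in DSS), 0.48 for Ccl11 (difference of responses), -0.07 for Ccl20 (difference of responses) and 0.00 for Ccl5 minus Ccl2. Leaving out each array in turn, the number of genes called was 1211 to 6865 for DSS in wild type, 511 to 3132 for DSS on average, 177 to 3178 for difference of responses, 0 to 2 for genotype in DSS, 1 to 11 for DSS in Parp1-/- and 2948 to 6167 for genotype in water, and of the 10 chemokines, calls numbered 0 to 2 for genotype in water, 0 to 4 for DSS in wild type and 1 to 4 for DSS on average. Differences whose sign turned for at least 1 left-out array ranged over -0.70 to 0.04 for Ccl8 (DSS in wild type), -0.36 to 0.01 for Ccl8 (DSS on average), -0.23 to 0.24 for Ccl11 (DSS on average), -0.13 to 0.10 for Ccl22 (DSS on average), -0.05 to 0.69 for Ccl8 (difference of responses), -0.05 to 0.35 for Ccl5 (genotype in water), -0.04 to 0.47 for Ccl11 (DSS in wild type), -0.51 to 0.67 for Ccl4 (genotype in DSS), -0.31 to 0.20 for Ccl11 (genotype in DSS), -0.04 to 0.52 for Ccl20 (genotype in DSS), -0.26 to 0.30 for Ccl20 (difference of responses), -0.04 to 0.80 for Ccl4 (DSS in wild type), -0.24 to 0.15 for Ccl22 (genotype in DSS), -0.91 to 0.08 for Ccl2 (difference of responses), -0.68 to 0.25 for Ccl11 (DSS in Parp1-/-), -0.08 to 0.84 for Ccl11 (genotype in water), -0.90 to 0.02 for Ccl11 (difference of responses), -0.03 to 0.01 for Ccl8 (DSS in Parp1-/-), -0.12 to 1.07 for Ccl4 (difference of responses), -0.24 to 0.94 for Ccl7 (genotype in DSS), -0.10 to 1.08 for Ccl7 (difference of responses) and -0.28 to 0.47 for Ccl2 minus Ccl28.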
